A study of Rattus norvegicus with 6 samples.

Results

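The genes described here are 8 fibroblast matrix and TGF-beta genes: Col1a1, Col1a2, Col3a1, Fn1, Mmp2, Timp1, Tgfb1 and Ccn2. They were chosen by Ensembl rat gene ID from a given list, and make up 8 of the 32883 genes in the count table. All 8 IDs were present, and 7 held enough reads to be tested. The table carries IDs without symbols, so each symbol used below is the name that the list gives to its ID, and no gene table used here could check these names.

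The study sought the RNAs bound by MBNL1 (muscleblind-like 1), an RNA-binding protein that controls splicing, stability and localisation of its target transcripts. Neonatal rat ventricular cardiomyocytes from postnatal days 1 and 2 were transduced when plated with the adenovirus AdMBNL1-FL, which carries FLAG-tagged MBNL1, at a multiplicity of infection of 100 for 48 h. The groups analysed here are 3 libraries of RNA recovered with an anti-FLAG antibody (RIP) and 3 of the lysate before pulldown (Input), for which 10% of the lysate was set aside at each pulldown. All 6 libraries therefore come from cells with the same added MBNL1, and control IgG pulldowns and untransduced cells were not analysed here. The comparison shows how the make-up of the recovered RNA differs from that of the lysate, with no measure of RNA held by beads or antibody alone and no comparison of MBNL1 with endogenous levels. The promoter that drives the construct and the number of animals behind a library are not given in the labels.

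These genes code for parts of the connective tissue scaffold of the heart and for signals that control it. Fibrillar collagens and fibronectin are laid down mainly by fibroblasts, metalloproteinases cut them, and tissue inhibitors of metalloproteinases restrain the cutting. TGF-beta is secreted in a latent form, is activated in the matrix and drives fibroblasts towards matrix production through Smad proteins, and connective tissue growth factor is one of its well-known targets. Cardiomyocytes also express several of these genes, Tgfb1 and Ccn2 among them. Per the labels, the cells were pre-plated on uncoated plastic to remove non-myocytes. The marker lists of cardiomyocytes, fibroblasts, endothelial, mural and immune cells and the list of further matrix and TGF-beta genes could not be read from a table of IDs alone, so the labelled cell type was not checked. In such bulk samples, fewer cells of a type and less RNA per cell cannot be told apart as the source of a level. This limit applies to levels in either group, since an Input was set aside from the lysate at each pulldown.

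Total counts ran from 17265349 to 18145453 in RIP and from 19150577 to 19325661 in Input. The gene with the highest count took 19.6% to 28.1% of the RIP counts and 7.79% to 8.89% of the Input counts. The libraries were therefore scaled with TMM factors, which are meant to correct for such differences in composition. TMM takes most genes as unchanged between libraries, so higher and lower in RIP below are relative to that centre. They are not absolute amounts of RNA recovered. Levels are given in CPM, the usual depth-scaled count, of the library so scaled. Of 13823 genes tested, 33% were higher and 34.9% lower in RIP (adjusted p under 0.05 in edgeR's quasi-likelihood test, with Benjamini-Hochberg adjustment), 67.9% together. With so many genes called, whether most were unchanged, as TMM assumes, was not tested. With library sizes alone the numbers moved from 4563 higher and 4824 lower to 3458 and 5590, and the median log2 fold change of all genes moved from -0.03 to -0.18. RIP lay wholly above Input in 34.3% of the tested genes and wholly below it in 36.8%, so a call or a gap between the groups was common in these libraries.

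The 7 tested genes did not move as a group. Tgfb1, Mmp2 and Ccn2 were higher in RIP, Col3a1 and Timp1 were lower, and Col1a1 and Fn1 did not pass the test. These 3 calls upward and 2 downward among 7 tested genes stand beside background shares of 33% and 34.9%, and the 5 calls in all beside 67.9%. The median log2 fold change of the 7 was -0.1, against -0.03 over all tested genes, and their values ran from -1.01 to 2.12. RIP and Input did not overlap for 5 of the 7, beside 71.1% of all tested genes, with RIP above Input for 3 (34.3% of all) and below it for 2 (36.8% of all). The 7 genes were well counted, with 2372 to 215537 counts per gene and library, so that counting error was at most 2.05% of a value.

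**Figure D1:**
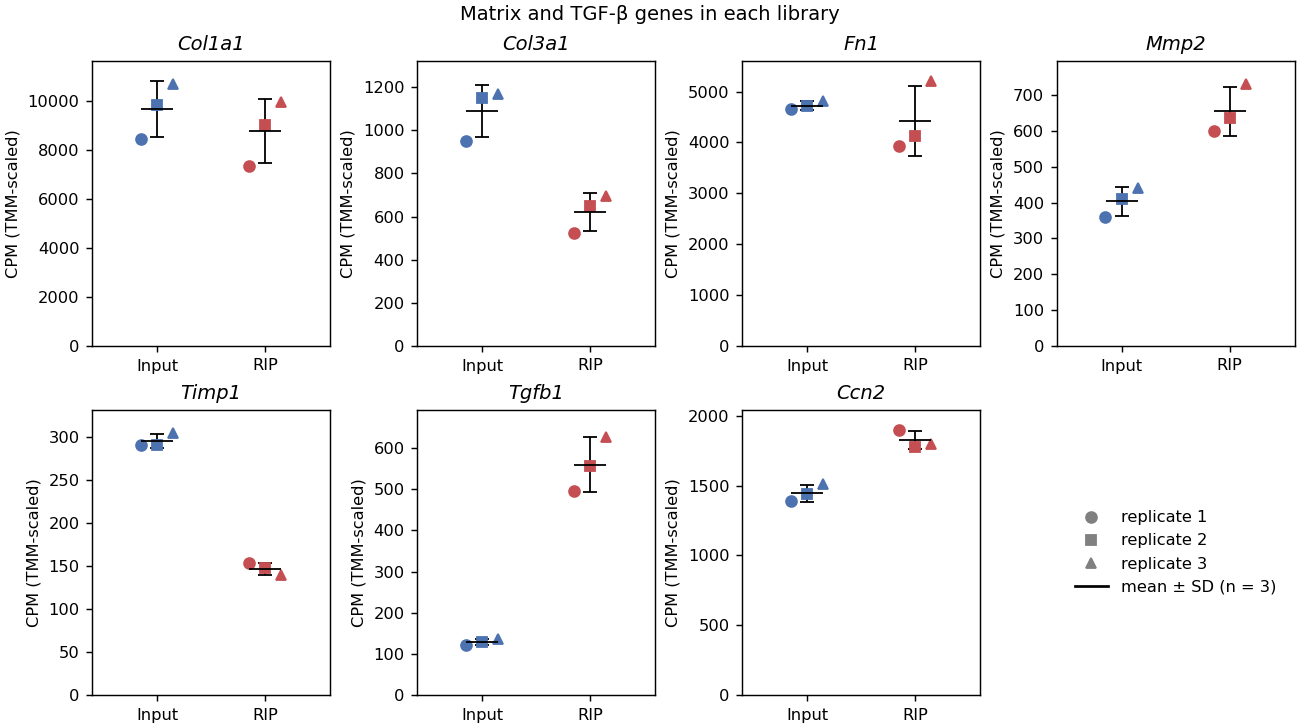
Level of each of the 7 tested genes in each library, in CPM of the TMM-scaled library on axes that start at 0. Points are libraries, with a circle, square and triangle for replicates 1, 2 and 3, and bars give the mean ± SD (n = 3); RIP lies wholly above Input for Mmp2, Tgfb1 and Ccn2 and wholly below it for Col3a1 and Timp1, and the groups overlap for Col1a1 and Fn1.

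Col1a1 (ENSRNOG00000003897) codes for the more abundant chain of type I collagen, the main fibrillar collagen of the heart. Its level was 8440, 9830 and 10700 CPM in Input replicates 1, 2 and 3, and 7350, 9030 and 9940 CPM in RIP replicates 1, 2 and 3. The groups overlapped, with the lowest Input library below the middle and highest RIP libraries. Between libraries of the same number RIP was always the lower, with log2 ratios of -0.2, -0.12 and -0.11 for replicates 1, 2 and 3. The mean was 9670 ± 1160 CPM in Input and 8770 ± 1320 CPM in RIP (± SD, 3 libraries per group). The log2 fold change of -0.14 (SE 0.11, 95% confidence interval -0.37 to 0.09) did not pass (edgeR adjusted p = 0.276). With the replicate number added to the model as a block it was again -0.14 and did not pass (edgeR adjusted p = 0.0639). A change of Col1a1 of a size within that interval is not excluded by these libraries.

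Col1a2 (ENSRNOG00000011292) is the name given to the ID of the partner chain, which joins the Col1a1 product in the type I collagen trimer. This row held 1, 1 and 2 counts in RIP replicates 1, 2 and 3, and 0, 1 and 1 counts in Input replicates 1, 2 and 3. It failed the filter on low counts and was not tested, and no fold is given, since both groups lie below a floor of 3 counts per library (0.155 to 0.174 CPM). Of the rows in the table, 47.8% had a total no higher than its 6 counts. The Col1a1 row held 115383 to 215537 counts in the same libraries. Whether the reads of the Col1a2 transcript were counted under this ID was not tested, and the planned ratio of the chains could not be computed.

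Col3a1 (ENSRNOG00000003357) codes for type III collagen, which forms fibrils together with type I. It measured 950, 1150 and 1170 CPM in Input replicates 1, 2 and 3 but only 522, 647 and 693 CPM in RIP replicates 1, 2 and 3. Every RIP library lay below every Input library. Col3a1 was 1.76-fold lower in RIP, with means of 1090 ± 123 CPM in Input and 621 ± 88.6 CPM in RIP (± SD, 3 libraries per group). The log2 fold change was -0.81 (SE 0.1, 95% confidence interval -1.02 to -0.61, edgeR adjusted p = 2.5e-07), and 19.5% of all tested genes had a lower value.

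Col1a1 and Col3a1 were also compared directly, by the ratio of their counts. A ratio of the counts of 2 genes within a library does not depend on how libraries are scaled. The count of Col1a1 over that of Col3a1 was 8.88, 8.54 and 9.16 in Input replicates 1, 2 and 3 and 14.1, 13.9 and 14.4 in RIP replicates 1, 2 and 3. All 3 RIP ratios lay above all 3 Input ratios, by 1.6-fold on average, and the replicates of each group lay close together. The two-sided exact permutation test gave p = 0.1, the smallest that 3 against 3 libraries allow, or 0.133 after Benjamini-Hochberg adjustment over the 4 gene pairs compared in this way. This pair was chosen after the data were seen, in place of the ratio with Col1a2.

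Fn1 (ENSRNOG00000014288) codes for fibronectin, a matrix glycoprotein that links collagen to integrins on the cell surface. Its level was 4650, 4710 and 4820 CPM in Input replicates 1, 2 and 3, the narrowest relative spread of the 7 genes in Input, at 1.85% of the mean. In RIP replicates 1, 2 and 3 it was 3930, 4120 and 5210 CPM, a spread of 15.6% of the mean, with RIP replicate 3 above all Input libraries and the others below them. The means were 4730 ± 87.4 CPM in Input and 4420 ± 690 CPM in RIP (± SD, 3 libraries per group). The log2 fold change of -0.1 (SE 0.1, 95% confidence interval -0.31 to 0.11) did not pass (edgeR adjusted p = 0.394). One library decided this: without RIP replicate 3 the log2 fold change of Fn1 was -0.23 and passed (edgeR adjusted p = 0.0256).

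The ratio of Fn1 to Col1a1 overlapped between the groups. The count of Fn1 over that of Col1a1 was 0.551, 0.48 and 0.449 in Input replicates 1, 2 and 3 and 0.534, 0.457 and 0.524 in RIP replicates 1, 2 and 3. The log2 ratio differed by 0.04 (two-sided exact permutation p = 0.9, also 0.9 after adjustment), a pair added after the data were seen. The SD of the log2 ratio was 0.15 in Input and 0.12 in RIP (n = 3 each), so a difference within that spread could not be detected.

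Mmp2 (ENSRNOG00000016695) codes for matrix metalloproteinase 2, a gelatinase that cleaves denatured and basement membrane collagen. It measured 360, 410 and 440 CPM in Input replicates 1, 2 and 3, and 599, 636 and 732 CPM in RIP replicates 1, 2 and 3. All RIP libraries lay above all Input libraries. The mean was 403 ± 40.6 CPM in Input and 656 ± 68.7 CPM in RIP (± SD, 3 libraries per group), a 1.63-fold higher level. The log2 fold change was 0.7 (SE 0.09, 95% confidence interval 0.52 to 0.89, edgeR adjusted p = 4.16e-07), and 16.9% of the tested genes had a higher value.

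Timp1 (ENSRNOG00000010208) codes for a secreted inhibitor of metalloproteinases, and it went the other way. It measured 290, 290 and 304 CPM in Input replicates 1, 2 and 3, and 153, 148 and 139 CPM in RIP replicates 1, 2 and 3. The groups lay far apart relative to their spread, with means of 295 ± 8.06 CPM in Input and 147 ± 7 CPM in RIP (± SD, 3 libraries per group). Timp1 was 2.01-fold lower in RIP, the largest decrease among the 7 genes. Its log2 fold change was -1.01 (SE 0.07, 95% confidence interval -1.16 to -0.85, edgeR adjusted p = 6.43e-11), and 15% of the tested genes had a lower value. The interval spans a 2-fold decrease, a size that 15.1% of all tested genes reached or passed with an adjusted p under 0.05.

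The opposite changes of protease and inhibitor combined in their ratio. The count of Mmp2 over that of Timp1 was 1.24, 1.41 and 1.45 in Input replicates 1, 2 and 3, and 3.92, 4.3 and 5.27 in RIP replicates 1, 2 and 3. The RIP ratios all lay above the Input ratios, by 3.27-fold on average. The difference in the log2 ratio was 1.71 (two-sided exact permutation p = 0.1, the smallest possible, and 0.133 after adjustment over 4 pairs). These are ratios of RNA counts and carry no information on the proteins.

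**Figure D2:**
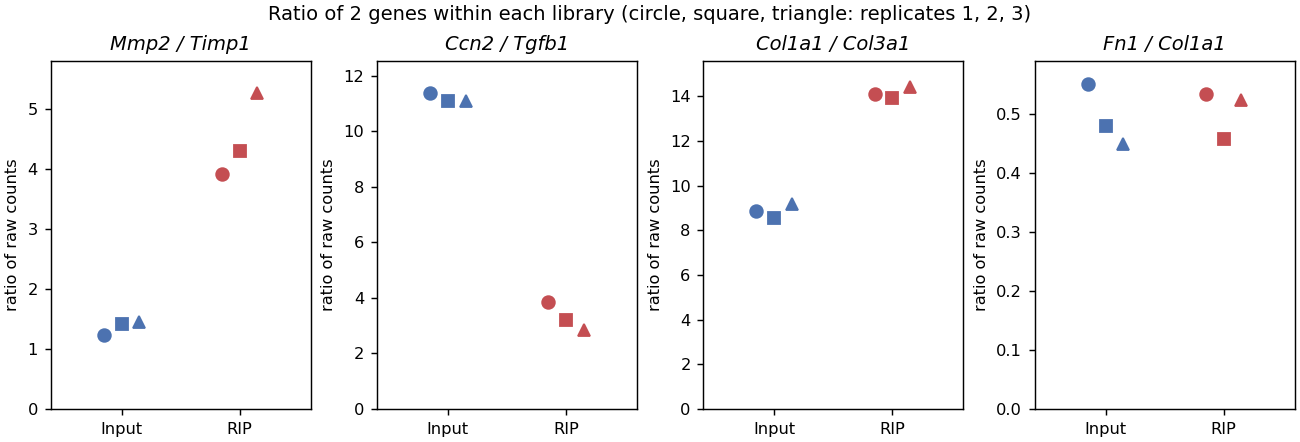
Ratio of the raw counts of 2 genes within each library, for Mmp2 over Timp1, Ccn2 over Tgfb1, Col1a1 over Col3a1 and Fn1 over Col1a1, on axes that start at 0. Each point is a library, Input on the left and RIP on the right; Mmp2 over Timp1 and Col1a1 over Col3a1 are higher in all RIP libraries, Ccn2 over Tgfb1 is lower in all of them, and Fn1 over Col1a1 overlaps.

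Tgfb1 (ENSRNOG00000020652) codes for the founding ligand of the TGF-beta family, a secreted cytokine. It measured 122, 129 and 137 CPM in Input replicates 1, 2 and 3, and 496, 556 and 628 CPM in RIP replicates 1, 2 and 3. Its lowest RIP library stood well above its highest Input library. The means were 129 ± 7.43 CPM in Input and 560 ± 66.2 CPM in RIP (± SD, 3 libraries per group), a 4.33-fold higher level. The log2 fold change was 2.12 (SE 0.09, 95% confidence interval 1.93 to 2.3, edgeR adjusted p = 8.39e-15). Only 37 of the 13823 tested genes, or 0.268%, had a higher value, and 8.94% were at least 2-fold higher with an adjusted p under 0.05. The counts behind this were 2372 to 2748 in the Input libraries and 7784 to 11391 in the RIP libraries.

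Ccn2 (ENSRNOG00000015036), formerly called Ctgf, codes for connective tissue growth factor, a matricellular protein that TGF-beta signalling induces. It measured 1390, 1440 and 1510 CPM in Input replicates 1, 2 and 3, and 1900, 1780 and 1800 CPM in RIP replicates 1, 2 and 3. The RIP libraries again lay above all Input libraries, but by less than for Tgfb1 or Mmp2. The means were 1450 ± 60.9 CPM in Input and 1830 ± 65 CPM in RIP (± SD, 3 libraries per group), a 1.26-fold higher level. The log2 fold change was 0.34 (SE 0.08, 95% confidence interval 0.17 to 0.5, edgeR adjusted p = 0.000727), and 31.9% of all tested genes had a higher value. This call depended on the scaling: with library sizes only the log2 fold change of Ccn2 was 0.18 and did not pass (edgeR adjusted p = 0.097). In CPM of the unscaled library the groups did not overlap, at 1410 to 1580 CPM in Input and 1690 to 1800 CPM in RIP. Under TMM, 71.1% of all tested genes showed such a gap, and the share in unscaled libraries was not computed.

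Ligand and target therefore moved by different amounts. The count of Ccn2 over that of Tgfb1 was 11.4, 11.1 and 11.1 in Input replicates 1, 2 and 3, almost the same in each library, and 3.84, 3.21 and 2.86 in RIP replicates 1, 2 and 3. All RIP ratios lay below all Input ratios, 3.41-fold lower on average. The log2 ratio differed by -1.77 (two-sided exact permutation p = 0.1, the smallest possible, and 0.133 after adjustment over 4 pairs).

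**Figure D3:**
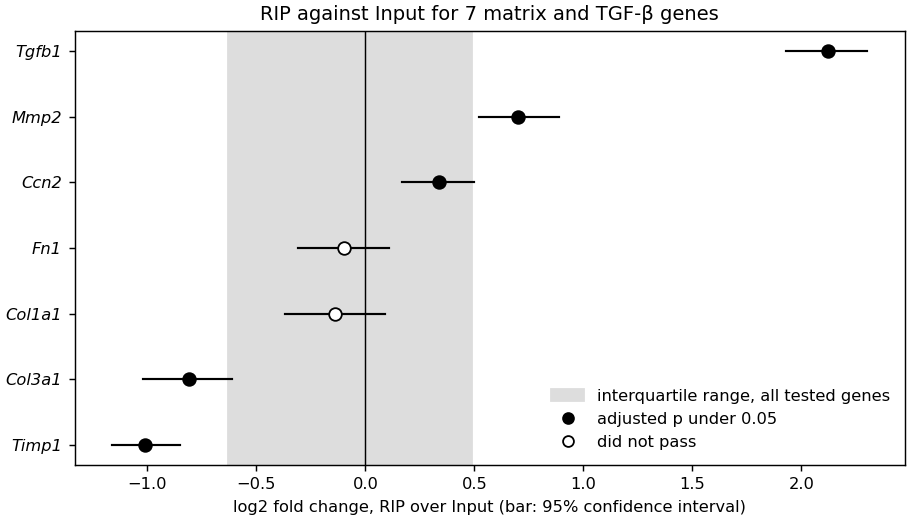
Log2 fold change of RIP over Input for the 7 tested genes, with 95% confidence intervals from the edgeR fit; filled points passed the adjusted p threshold of 0.05 and open points did not. The grey band spans the interquartile range of all 13823 tested genes, from -0.63 to 0.49; the estimates for Tgfb1 at 2.12, Mmp2 at 0.7, Col3a1 at -0.81 and Timp1 at -1.01 lie outside it, and those for Ccn2, Fn1 and Col1a1 lie inside.

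A scaling applies a single factor to each library. The 7 fold changes therefore shift together and largely keep their order by construction, which is no check on the order. Fn1 and Col1a1, next to each other in that order, had overlapping intervals. From TMM to library sizes only, Tgfb1 moved from 2.12 to 1.97, Mmp2 from 0.7 to 0.55, Col3a1 from -0.81 to -0.96 and Timp1 from -1.01 to -1.16, and all of these passed under both. Col1a1 moved from -0.14 to -0.29 and Fn1 from -0.1 to -0.24, and neither passed under library sizes only (edgeR adjusted p = 0.0673 for Col1a1 and 0.0869 for Fn1). No gene of the 7 changed sign under the 4 scalings compared.

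**Figure D4:**
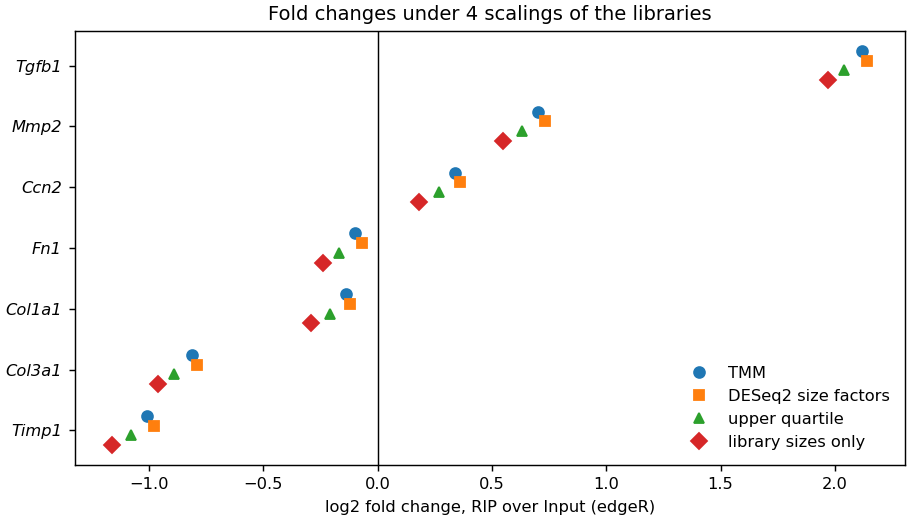
Log2 fold change of RIP over Input for the 7 tested genes in edgeR with TMM factors, DESeq2 size factors, upper-quartile factors and library sizes only. Each symbol is an estimate under a given scaling. The shift is about the same for all genes by construction, since a scaling applies a single factor to each library. Library sizes only gives the lowest value for each gene, for example 0.18 for Ccn2 and 1.97 for Tgfb1.

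Summed over all 8 rows, the genes took 1.65%, 1.98% and 2% of the counts in Input replicates 1, 2 and 3 and 1.33%, 1.63% and 1.91% in RIP replicates 1, 2 and 3. The means were 1.87% ± 0.196 in Input and 1.62% ± 0.294 in RIP (± SD, 3 libraries per group). The groups overlapped (two-sided exact permutation p = 0.2). The Col1a2 row added at most 2 counts in a library, so the sum is in effect that of the 7 tested genes. Col1a1 alone made up 49.2% to 56.2% of these counts, so the sum mostly follows that gene. The sign of the difference turned when the gene with the highest count was left out of the totals: the shares were then 2.04% ± 0.204 in Input and 2.11% ± 0.268 in RIP (± SD, 3 libraries per group, two-sided exact permutation p = 0.9).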

How the data were processed

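Raw read counts per gene were deposited by the authors for 6 libraries, with no normalization. STAR, featureCounts and DESeq2 were used, per the submitters' processing notes; their versions and the genome build, annotation, strandedness and handling of multi-mapped reads were not given in the sources used here. None of the RefSeq gene table's entries carries an Ensembl ID, so lengths, coordinates and sequences were not assigned to the IDs, levels are not compared between genes, and genes with the most similar pattern are not named. Reads shared with overlapping genes were not checked. Gene symbols are those of the member list, and members and lists were chosen with earlier results of these data known.

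From the counts, edgeR 4.0.16 (R 4.3.3) was run with filterByExpr (minimum count 10, minimum total 15), TMM factors of 0.888 to 1.102 and the quasi-likelihood F test of RIP against Input, all 6 libraries in a model without covariates. Adjustment of p-values was over all 13823 genes tested, at a threshold of 0.05. Standard errors are the log2 fold change over the square root of F, and intervals use the fit's degrees of freedom. The test was tested on simulated data: in the single draw made, its share of false calls was above the nominal threshold, and small changes were missed more often than larger ones. That draw changed few genes, equally up and down, whereas 67.9% of tested genes were called in these data. It set no shift of the gene with the highest count, so it does not give the error rates for these libraries. Alternatives used DESeq2 1.42.0, limma-voom (limma 3.58.1), other scalings and filters, each library left out and the replicate number as a block. All 8 members are named. The labels leave unsaid whether replicates are separate cultures, so the p-values reflect the spread between these samples, which may be technical. Counting error assumes independent reads.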

Additional observations from a re-analysis of the deposited data

How the results depend on the processing

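The 7 fold changes were recomputed under 15 alternative fits, 105 values in all, of which 103 kept their direction and side of the threshold and 0 changed sign. The exceptions were Ccn2 with library sizes only, at 0.18 (edgeR adjusted p = 0.097), and Fn1 without RIP replicate 3, at -0.23 (edgeR adjusted p = 0.0256). The fold changes on the log2 scale ranged from 1.97 to 2.19 for Tgfb1, 0.55 to 0.77 for Mmp2, 0.18 to 0.37 for Ccn2, -0.24 to -0.02 for Fn1, -0.29 to -0.03 for Col1a1, -0.96 to -0.71 for Col3a1 and -1.16 to -0.96 for Timp1. Leaving out each library in turn gave 3 genes higher and 2 to 3 lower. The difference in log2 ratio then ranged from 1.59 to 1.8 for Mmp2 over Timp1, -1.89 to -1.67 for Ccn2 over Tgfb1, 0.65 to 0.7 for Col1a1 over Col3a1 and -0.03 to 0.12 for Fn1 over Col1a1, whose sign turned. The summed share differed by -0.399 to -0.105 percentage points (RIP minus Input) when a library was left out, and by 0.0653 points without the gene with the highest count, which takes a larger part of RIP than of Input. The edgeR fit without the gene with the highest count, and the pairs with Col1a1, were added after the data were seen.

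With the replicate block, 3 genes were higher and 2 lower, as without it, and over all genes 4616 were higher and 4877 lower. To check for pairing, each library's deviation from its group mean was correlated across genes with that of the library of the same number, which gave 0.053, 0.077 and 0.053. Each library's highest correlation was with its own number, but these correlations are low. Log2 ratios of RIP over Input between libraries of the same number spanned 0.09 for Col1a1, 0.1 for Col3a1 and 0.1 for Mmp2. They spanned 0.17 for Tgfb1, 0.2 for Ccn2, 0.21 for Timp1 and 0.36 for Fn1. An Input was set aside at each pulldown, but the labels do not say whether a number marks a pulldown and its own Input. Pairing was therefore not settled, and the main tests treat the libraries as unpaired.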

Other observations

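Libraries with the same number showed the same order for most of these genes, a pattern chosen after the values were seen. Col1a1, Col3a1, Fn1, Mmp2 and Tgfb1 were lowest in replicate 1 and highest in replicate 3 in both RIP and Input. Timp1 and Ccn2 had this order in Input and not in RIP, where replicate 1 was their highest library. For Timp1 the order in Input was barely resolved, since replicates 1 and 2 both round to 290 CPM. It also depended on the scaling: with library sizes only, Timp1 measured 295, 320 and 317 CPM in Input replicates 1, 2 and 3. Of all 13823 tested genes, 3.56% were lowest in replicate 1 and highest in replicate 3 in both groups, and 11.7% were lowest in replicate 1 in both. With library sizes only, 7 of the 7 genes were lowest in replicate 1 in both groups, beside 28% of all tested genes, and 3 of the 7 were also highest in replicate 3 in both, beside 6.99%. The 5 genes include members called in each direction and not called, and the differences between groups for Col3a1, Mmp2 and Tgfb1 were larger than this spread. The labels do not say whether a number marks a shared culture.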
